A study of Mus musculus with 33 samples.

Results

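Within the TSLPR+ regulatory T cells (Treg) of the colon of mice with colitis-associated cancer, cells carrying the IL-33 receptor ST2 were compared with cells lacking it. Libraries were chosen by their titles: status cancer and the TSLPR+Il1rl1+ sort (4 libraries) against the TSLPR+Il1rl1- sort (4 libraries), each pair taken from mouse 5, 6, 7 or 8. These are 8 of the 33 libraries of the series. Its question is how the barrier cytokines TSLP and IL-33 differ in their action on Treg during colorectal cancer. Each mouse carried the genotype Foxp3-yfp B6, a fluorescent reporter of the Treg factor Foxp3 on the C57BL/6 background, and the protocol gives an age of 7 to 12 weeks for purchased mice. The cancer mice had received azoxymethane (AOM, a carcinogen, 10 mg/kg) and then dextran sulfate sodium (DSS, which injures the colon lining) in 3 cycles with 7 days of DSS each, and were killed 2 weeks after the last DSS. Treg were sorted from digested colon as CD45+ TCR+ CD4+ Foxp3+ cells, 200 cells a library, and split by surface TSLPR and ST2. ST2+ and ST2- cells thus share the animal, the treatment and the TSLPR+ gate. The labels name the colon as source, and do not say whether cells came from tumour or from the tissue around it. The nearest groups are the same pair of gates in 4 naive mice (mice 1 to 4, same genotype, no AOM or DSS named) and the TSLPR- pair in the same 4 cancer mice.

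ST2, encoded by Il1rl1, pairs with Il1rap to bind IL-33, an alarm cytokine released by injured epithelial and stromal cells, and signals through Myd88, the Irak kinases and NF-kB. TSLPR, encoded by Crlf2, pairs with the IL-7 receptor chain Il7r to bind TSLP and signals through Jak kinases and Stat5. ST2+ Treg of gut, skin and fat are known as tissue Treg that often carry Gata3, Klrg1 and the repair factor Areg, in contrast to central Treg that keep the lymph node homing receptor gene Ccr7.

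Library totals were 4038718 to 5816224 counts for ST2+ and 5759266 to 6531701 for ST2- cells, with 15402 to 16495 genes detected in the 8 libraries. Mitochondrial genes took 2.83, 2.42, 3.23 and 1.43% of the counts of the ST2+ libraries of mice 5 to 8 and 1.47, 1.46, 1.60 and 1.96% of the ST2- libraries. A pair of libraries stood apart. In the ST2+ library of mouse 7, a list of 12 epithelial markers summed to 14534 CPM (counts scaled for library size), against 200.1 to 573 in the other 3 ST2+ and 92.8 to 154 in the 4 ST2- libraries. The ST2+ library of mouse 5 had 25.2 CPM of Crlf2, below the 30.5 CPM of the TSLPR-ST2+ library of the same mouse and so against the order of its TSLPR gates. For most named genes that passed, a call lost without mouse 5 or 7 is therefore stated. Values of genes that did not pass are mostly given with all mice only. CPM of single genes below use TMM-scaled totals, CPM of marker sums use plain totals, and 4 values in a row are mice 5, 6, 7 and 8 in that order.

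The sort gene followed its gate. Il1rl1 (chr1:40429570-40465415, + strand, GRCm38) stood at 200.2, 182, 158 and 199.5 CPM in ST2+ and at 1.33, 11, 0 and 0.155 CPM in ST2- libraries. All ST2+ values lay far above all ST2- values, and the highest ST2- value, in mouse 6, was the only one above 2 CPM in that gate (76.2-fold, log2 6.25 ± 0.95 SE, edgeR adjusted p = 0.00296). The fold was 435 without mouse 6 and 48.4 to 68.8 without each other mouse. Crlf2 (chr5:109554709-109558993, - strand), on which both gates were sorted alike, had 25.2, 32.9, 29.7 and 54.2 CPM in ST2+ and 40.6, 37.6, 37.3 and 32.6 CPM in ST2- libraries. These ranges overlapped, with mouse 8 highest and mouse 5 lowest among ST2+ libraries (log2 -0.06 ± 0.28 SE, edgeR adjusted p = 0.978). Foxp3 (chrX:7573644-7595245, + strand), the lineage factor of Treg, was found in all 8 libraries, at 85.1, 59.9, 96.0 and 122 CPM in ST2+ and 136, 163, 62.2 and 131 CPM in ST2- cells. It was lower in the ST2+ library of 3 of 4 mice, mouse 7 being the exception, and did not pass (log2 -0.42 ± 0.21 SE, edgeR adjusted p = 0.457).

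ST2+ cells had more RNA of Klrg1, Cd200r1, Id2, Itgb1, Il7r and 3 S100 genes, and less of Gpr83, Lrrc32, Capn3, Bcl2 and Ccr7. In all, 40 genes were higher and 59 lower in ST2+ cells at an edgeR adjusted p under 0.05, together 99 of 14861 genes tested (0.666%, 0.269% higher and 0.397% lower). At an unadjusted p under 0.05, 1639 genes (11%) differed. Of the 99 genes, 97 moved the same way in each of the 4 mice, and 92 had ST2+ and ST2- values that did not overlap, a pattern found in 768 (5.17%) of all tested genes. Both counts use the libraries that gave the calls, and so are no separate support for them. With RLE size factors in place of TMM the count was 100, split 50 higher and 50 lower. A change of more than 2-fold was fitted for 19 of the higher and 32 of the lower genes. The count was 48, 56, 29 and 99 when mouse 5, 6, 7 or 8 was left out, of which 36, 41, 23 and 54 were among the reported 99, and 15 genes kept the call with any 1 of the 4 mice left out. These 15 were Il1rl1, Cd200r1, S100a6, S100a10, S100a11, Cd81, Il7r and Ikzf2, all higher, and Capn3, Gpr83, Rexo2, Dctn1, Snapc4, Drc1 and Rasl11b, all lower. All 99 genes kept their sign without mouse 5 and without mouse 7, with a median absolute log2 change of 1.03 and 0.96, against 1.03 with all mice. The 99 were chosen with both mice included, so a kept sign was nearly fixed in advance and is no separate support. With the mitochondrial share of each library as a covariate, 14 of the 42 named genes that passed lost the call, among them Klrg1, Ikzf2, Lrrc32, Ccr7, Rsad2, Gzma, Ckmt1, Slc9a7, St8sia1, Adck2, Abtb2, Gbp10 and Dnajb1 (adjusted p of 0.0567 to 0.177). Without the mouse block 8 did (Gzma, Ckmt1, Slc9a7, Adck2, Abtb2, Gbp10, Tnfrsf18 and Ccr7, adjusted p of 0.0540 to 0.0830). By limma-voom 8 did (Klrg1, Ckmt1, Rsad2, Slc9a7, St8sia1, Adck2, Abtb2 and Gbp10, 0.0621 to 0.441). Fitted on the 8 libraries alone with a mouse term, which leaves few residual degrees of freedom, 1 gene passed, Klrg1 (log2 4.37, edgeR adjusted p = 0.00849).

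**Figure D1:**
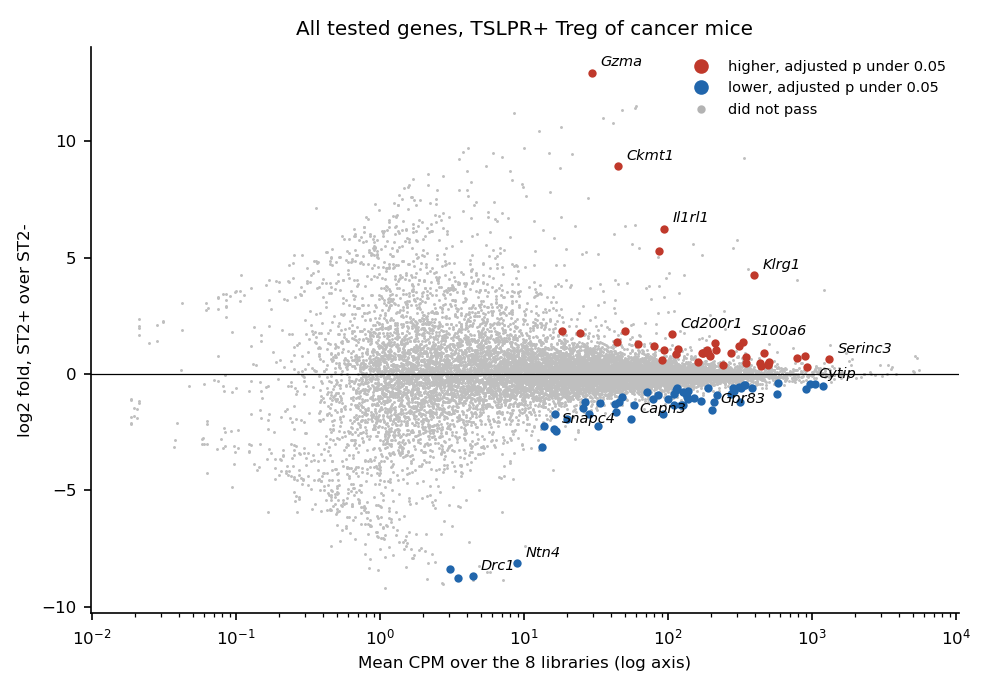
Fitted log2 fold of ST2+ over ST2- cells (y axis) against the mean CPM of the 8 libraries (log x axis) for every tested gene of TSLPR+ Treg in cancer mice. Red points are the 40 genes that passed as higher, blue points the 59 that passed as lower and grey points the rest, and called genes reach from Gzma and Ckmt1 at the top, with few or no counts in ST2- cells, to Rasl11b and Drc1 at the bottom, with no counts in ST2+ cells.

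Klrg1, Cd200r1, Il7r, Itgb1 and Tnfrsf18 are surface receptors that rose. Klrg1 (chr6:122270596-122282882, - strand), an inhibitory lectin receptor for cadherins, stood at 843, 737, 757 and 672 CPM in ST2+ and 52.3, 21.7, 57.7 and 25.6 CPM in ST2- libraries (752 ± 70.5 against 39.3 ± 18.3, mean ± SD, n = 4). The gates were far apart in every mouse (19.2-fold, log2 4.26 ± 0.85 SE, edgeR adjusted p = 0.0195). Its SE was wide, and with 1 mouse fewer the call was lost without mouse 5 (0.0698), mouse 6 (0.0854) or mouse 7 (0.0696), in edgeR adjusted p, at folds of 16.3 to 22.9. It was also lost without a filter on low counts (adjusted p = 0.100), by limma-voom (0.441) and with the mitochondrial covariate (0.0781). Cd200r1 (chr16:44765736-44794978, + strand), the inhibitory receptor for CD200, had 177, 147, 141 and 189.7 CPM in ST2+ and 40.1, 66.7, 41.0 and 50.0 CPM in ST2- cells. Every ST2+ value was more than 2-fold above the ST2- value of the same mouse, and the call held whichever mouse was left out (3.30-fold, log2 1.72 ± 0.26 SE, edgeR adjusted p = 0.00296). Il7r (chr15:9505788-9530176, - strand), the chain that TSLPR needs to bind TSLP, read 712, 604, 533 and 588 CPM in ST2+ and 294, 337, 377 and 288 CPM in ST2- cells. It was thus higher in ST2+ cells in 4 of 4 mice without overlap, while its partner Crlf2 was not (1.89-fold, log2 0.92 ± 0.17 SE, edgeR adjusted p = 0.00884). Itgb1 (chr8:128685654-128733200, + strand), the beta-1 integrin chain, reached 343, 270.4, 259 and 343 CPM against 98.4, 144, 164 and 64.9 CPM. The lowest ST2+ value, in mouse 7, was above the highest ST2- value, in the same mouse (2.56-fold, log2 1.36 ± 0.27 SE, edgeR adjusted p = 0.0167), and the call was lost without mouse 5 (0.143), in adjusted p. Tnfrsf18 (chr4:156026164-156028895, + strand), which encodes the costimulatory receptor GITR, rose 1.35-fold (527, 554, 609 and 580.4 against 382, 474, 415 and 413 CPM, edgeR adjusted p = 0.0167). That small step did not overlap between gates, but was lost as a call without mouse 5 (0.0586), mouse 7 (0.138) or mouse 8 (0.0595), in adjusted p.

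The S100 genes encode small calcium-binding proteins, and 3 of them rose and kept the call with any 1 of the 4 mice left out. S100a6 (chr3:90612882-90624181, + strand) had 370.1, 552, 712 and 312 CPM in ST2+ and 196, 128, 232 and 167 CPM in ST2- cells (2.63-fold, log2 1.39 ± 0.24 SE, edgeR adjusted p = 0.00690). Its ST2+ values spread more than those of the other 2 genes, with mice 6 and 7 above mice 5 and 8. S100a10 (chr3:93555080-93564643, + strand), the partner of annexin A2, was at 914, 954, 1189 and 841 CPM against 578, 532, 600.3 and 663 CPM (1.63-fold, log2 0.70 ± 0.10 SE, edgeR adjusted p = 0.00215). S100a11 (chr3:93520488-93526287, + strand) was at 224, 219, 242 and 216 CPM against 119.6, 117, 130.0 and 119 CPM (1.86-fold, log2 0.89 ± 0.16 SE, edgeR adjusted p = 0.00884). The 4 mice lay close together in each gate for S100a11. For all 3 genes the ST2+ library of mouse 7, which held epithelial RNA, had the highest value of its gate. Without mouse 7 the folds were 2.46 for S100a6, 1.52 for S100a10 and 1.85 for S100a11.

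The start regions of 5 genes that kept their calls are shown, as examples of the sequence at genes that rose and fell together, with and without a match to the motifs searched. Each run is 300 bases, 250 before and 50 after a RefSeq transcription start (GRCm38.p6), read in the direction of the gene. Capitals mark matches, on either strand, to TGANTCA (a site for AP-1 factors), AGATAA (a site for GATA factors) or TTCNNNGAA (a site for STAT factors), and none of the shown matches overlap. Il1rl1 has 2 starts in the table, at chr1:40429320-40429619 (first) and chr1:40439379-40439678 (second), both on the + strand. S100a11 is at chr3:93520246-93520545, + strand, S100a6 at chr3:90612644-90612943, + strand, Il7r at chr15:9529827-9530126, - strand, and Gpr83, a gene that fell, at chr9:14859960-14860259, + strand.
Il1rl1 first start: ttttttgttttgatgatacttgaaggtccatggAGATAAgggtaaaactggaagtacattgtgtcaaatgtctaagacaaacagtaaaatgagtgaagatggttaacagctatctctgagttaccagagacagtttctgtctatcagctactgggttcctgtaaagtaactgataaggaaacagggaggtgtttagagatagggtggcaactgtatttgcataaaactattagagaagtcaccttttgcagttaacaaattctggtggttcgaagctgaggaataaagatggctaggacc
Il1rl1 second start: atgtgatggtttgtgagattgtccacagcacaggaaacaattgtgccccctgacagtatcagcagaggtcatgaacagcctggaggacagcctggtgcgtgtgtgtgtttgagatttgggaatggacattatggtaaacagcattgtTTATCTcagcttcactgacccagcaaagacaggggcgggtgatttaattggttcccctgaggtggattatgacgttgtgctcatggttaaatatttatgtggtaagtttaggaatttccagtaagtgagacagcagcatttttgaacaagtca
S100a11: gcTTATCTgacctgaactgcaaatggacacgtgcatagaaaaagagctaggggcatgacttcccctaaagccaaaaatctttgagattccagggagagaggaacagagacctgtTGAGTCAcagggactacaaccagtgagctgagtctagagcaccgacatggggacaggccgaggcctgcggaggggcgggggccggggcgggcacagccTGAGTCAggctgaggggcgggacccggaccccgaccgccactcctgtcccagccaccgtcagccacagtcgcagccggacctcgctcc
S100a6: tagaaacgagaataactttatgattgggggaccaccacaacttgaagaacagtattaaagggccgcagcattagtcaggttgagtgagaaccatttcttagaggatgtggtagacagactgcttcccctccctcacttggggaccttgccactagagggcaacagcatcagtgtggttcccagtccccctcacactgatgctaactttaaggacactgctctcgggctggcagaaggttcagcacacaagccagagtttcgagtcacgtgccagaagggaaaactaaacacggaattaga
Il7r: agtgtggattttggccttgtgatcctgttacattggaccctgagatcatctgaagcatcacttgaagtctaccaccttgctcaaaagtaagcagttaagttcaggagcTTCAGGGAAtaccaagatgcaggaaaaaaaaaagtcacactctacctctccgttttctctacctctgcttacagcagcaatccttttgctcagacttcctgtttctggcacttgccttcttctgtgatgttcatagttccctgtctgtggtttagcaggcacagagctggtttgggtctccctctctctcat
Gpr83: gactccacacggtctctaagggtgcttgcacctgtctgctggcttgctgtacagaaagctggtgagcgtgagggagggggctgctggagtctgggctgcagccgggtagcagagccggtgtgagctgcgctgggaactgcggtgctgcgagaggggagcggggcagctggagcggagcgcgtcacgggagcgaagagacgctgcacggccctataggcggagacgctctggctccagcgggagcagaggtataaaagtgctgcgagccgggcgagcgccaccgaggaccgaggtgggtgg
Each Il1rl1 window held 1 match to AGATAA, the S100a11 window 2 to TGANTCA and 1 to AGATAA, the Il7r window 1 to TTCNNNGAA and the S100a6 and Gpr83 windows none of the 3. The windows of Cd81, Id2 and Itgb1, which rose, also held none, and the second start of Capn3, which fell, held 1 match to AGATAA. Over all 32851 starts in the RefSeq table, 7.81% held TGANTCA, 11.2% AGATAA and 8.30% TTCNNNGAA. The 37 starts of 29 genes called higher held them in 8.11, 10.8 and 13.5%, and the 61 starts of 44 genes called lower in 4.92, 6.56 and 6.56%. These are descriptions of letters in a short window and say nothing of binding.

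Among regulators in the nucleus, Id2 and Ikzf2 rose. Id2 (chr12:25093799-25097140, - strand), which blocks DNA binding of E proteins, was at 504, 327, 483 and 418 CPM in ST2+ and 162, 180.4, 174 and 222 CPM in ST2- cells. The gates did not overlap in any pairing of mice (2.32-fold, log2 1.21 ± 0.21 SE, edgeR adjusted p = 0.00690), and the call was narrowly lost without mouse 5 (0.0561) or mouse 7 (0.0551), in adjusted p. Ikzf2 (chr1:69531214-69687245, - strand), the Ikaros family factor Helios, was already abundant in ST2- cells at 714, 735, 575 and 619 CPM and reached 1251, 1200.2, 1001 and 1078 CPM in ST2+ cells. The call held in every fit with a mouse left out (1.72-fold, log2 0.78 ± 0.14 SE, edgeR adjusted p = 0.00884), and was lost with the mitochondrial share as covariate (adjusted p = 0.0567). Gata3, the factor tied to ST2+ Treg, had 147, 107, 123 and 151 CPM against 70.8, 113, 72.6 and 46.1 CPM. It overlapped because of the ST2- library of mouse 6, and did not pass here (log2 0.78 ± 0.25 SE, edgeR adjusted p = 0.185). Foxp1, a forkhead factor of resting T cells, fell 1.51-fold (247, 302, 171 and 314 against 421, 386, 319 and 409 CPM, edgeR adjusted p = 0.0167), a call lost without mouse 5 (0.143) or mouse 7 (0.114), in adjusted p.

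Other genes that rose have roles at membranes. Cd81 (chr7:143052739-143067934, + strand), a tetraspanin, had 277, 310.4, 280.1 and 296 CPM in ST2+ and 166, 131, 135 and 132 CPM in ST2- cells, all ST2+ values being far above the ST2- values (2.07-fold, log2 1.05 ± 0.17 SE, edgeR adjusted p = 0.00353). Cd9 (chr6:125460266-125494791, - strand), another tetraspanin, went the other way, with 65.1, 61.7, 53.3 and 60.1 CPM against 109.8, 102, 119 and 110.0 CPM (1.84-fold, log2 -0.88 ± 0.16 SE, edgeR adjusted p = 0.00862). Both pairs of ranges were well apart, so 2 members of 1 family moved in opposite directions, though the Cd9 call was lost without mouse 7 (0.0980), in adjusted p. Serinc3 (chr2:163623272-163645131, - strand), a multipass membrane protein, was at 1641, 1657, 1505 and 1607 CPM against 924, 1183, 1071 and 964 CPM (1.55-fold, log2 0.63 ± 0.11 SE, edgeR adjusted p = 0.00628, lost without mouse 5 (0.0586), in adjusted p). Samsn1 (chr16:75858793-76022281, - strand), an SH3 adaptor of lymphocytes, was at 504, 367, 387 and 476 CPM against 264, 280.0, 274 and 212 CPM (1.68-fold, log2 0.75 ± 0.14 SE, edgeR adjusted p = 0.0109). Both were higher in each mouse without overlap, and the Samsn1 call was lost without mouse 5 (0.0636) or mouse 8 (0.0623), in adjusted p. Slc9a7, a sodium-proton exchanger of the Golgi, rose 3.36-fold (edgeR adjusted p = 0.0357, lost without mouse 5 (0.0979), mouse 6 (0.195) or mouse 7 (0.160)).

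**Figure D2:**
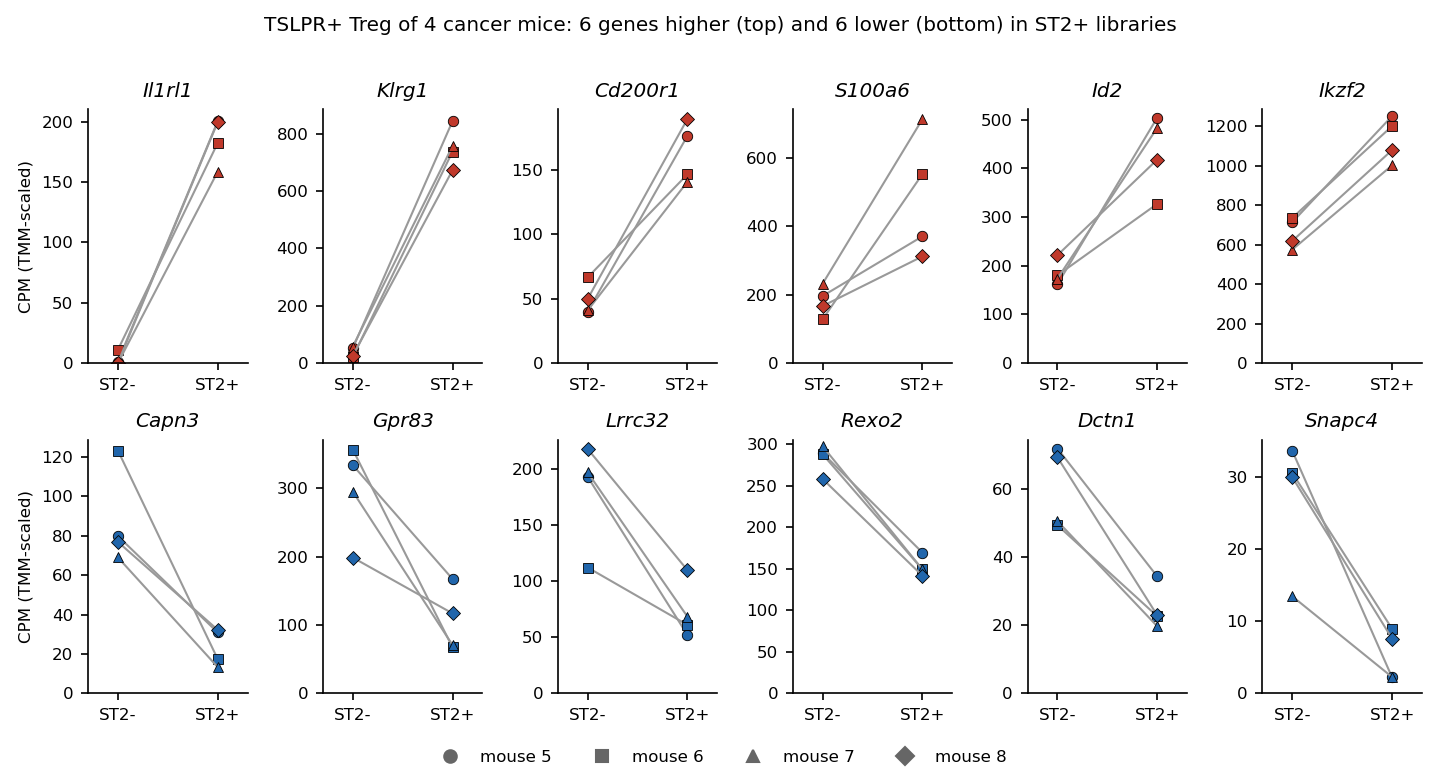
CPM (y axis, from 0, a scale for each gene) in the ST2- and ST2+ libraries of TSLPR+ Treg, with a line joining the 2 libraries of a mouse and a symbol for each of the 4 cancer mice. The top row holds 6 genes that rose and the bottom row 6 that fell, and the ranges of the gates do not overlap for any of the 12.

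Several genes that fell belong to the Treg programme or to resting cells. Gpr83 (chr9:14860210-14870789, + strand), a peptide receptor typical of Treg, had 167, 67.5, 70.8 and 117 CPM in ST2+ and 334, 357, 295 and 199 CPM in ST2- cells. Mouse 8 gave the smallest step and mouse 6 the largest, and the gates did not overlap (2.87-fold, log2 -1.52 ± 0.20 SE, edgeR adjusted p = 0.000563). Lrrc32 (chr7:98489283-98502181, + strand), which encodes GARP, the surface dock for latent TGF-beta, had 52.2, 61.1, 68.5 and 110.0 CPM against 193, 112, 197 and 218 CPM. The highest ST2+ value, in mouse 8, lay just under the lowest ST2- value, in mouse 6 (2.49-fold, log2 -1.32 ± 0.25 SE, edgeR adjusted p = 0.0128), and the call was lost without mouse 5 (0.0977) or mouse 7 (0.0939), in adjusted p. Bcl2 (chr1:106538178-106714274, - strand), the survival factor, had 175, 236, 88.7 and 276 CPM against 484, 519, 346 and 403 CPM, with mouse 7 lowest in both gates (2.29-fold, log2 -1.19 ± 0.25 SE, edgeR adjusted p = 0.0242, lost without mouse 5 (0.152) or mouse 6 (0.0858)). Ly6c1, a surface protein of naive and central T cells whose reads may be shared with its close copy Ly6c2, fell 2.20-fold (142, 129, 88.1 and 67.8 against 209.6, 165, 317 and 226 CPM, edgeR adjusted p = 0.0242, lost without mouse 7 (0.196) or mouse 8 (0.128)). Ccr7, the receptor that guides cells to lymph nodes, was lowest in mouse 7 of the ST2+ gate, with 509, 525, 209 and 420.0 CPM against 669.5, 774, 717 and 744 CPM (1.81-fold, log2 -0.86 ± 0.20 SE, edgeR adjusted p = 0.0409). Its call was lost without mouse 5 (0.0532), mouse 7 (0.278) or mouse 8 (0.11), in adjusted p, and the fold without mouse 7 was 1.51. Bulk libraries cannot tell fewer cells of a type from less RNA in each cell, and this holds for every difference given here.

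The gene with the smallest p of all was Capn3 (chr2:120456019-120504913, + strand), a calcium-dependent protease best known from muscle. Its ST2+ libraries had 30.9, 17.5, 13.4 and 32.3 CPM and its ST2- libraries 79.8, 123, 68.9 and 76.8 CPM, so that each ST2+ value was more than 2-fold below its ST2- partner (3.81-fold, log2 -1.93 ± 0.24 SE, edgeR adjusted p = 0.000479). Rexo2 (chr9:48468512-48480623, - strand), a nuclease that clears short RNA in mitochondria, had 169.7, 149.5, 149.6 and 142 CPM against 289.5, 288, 298 and 258 CPM, both tight ranges (1.85-fold, log2 -0.89 ± 0.14 SE, edgeR adjusted p = 0.00296). Dctn1 (chr6:83165920-83200117, + strand), the largest subunit of the dynein partner dynactin, had 34.4, 22.7, 19.7 and 23.0 CPM against 71.9, 49.4, 50.6 and 69.4 CPM (2.41-fold, log2 -1.27 ± 0.20 SE, edgeR adjusted p = 0.00417). Snapc4 (chr2:26362765-26380653, - strand), a subunit of the complex that starts small nuclear RNA genes, had 2.23, 8.96, 2.27 and 7.6 CPM against 33.6, 30.5, 13.5 and 29.9 CPM (5.10-fold, log2 -2.35 ± 0.40 SE, edgeR adjusted p = 0.00629). All 4 kept the call with any 1 of the 4 mice left out. The lowest ST2- value of Snapc4, in mouse 7, still lay above its highest ST2+ value, in mouse 6.

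Txk, a Tec family kinase of T cells, fell 2.13-fold (131, 68.3, 83.5 and 69.3 against 196, 157, 229 and 162 CPM, edgeR adjusted p = 0.00629). Cytip, which binds cytohesins and tempers adhesion, fell 1.35-fold (784, 887, 731 and 886 against 1045, 1169, 1149 and 1056 CPM, edgeR adjusted p = 0.00629). Of the 4 fits with a mouse left out, both lost the call in that without mouse 7, at adjusted p of 0.0575 and 0.0696. Slc17a9, the transporter that loads vesicles with ATP, fell 2.10-fold (67.8, 52.4, 92.6 and 43.8 against 162, 128, 103 and 146 CPM, edgeR adjusted p = 0.00780). Mouse 7 gave its smallest step, and the call was lost without mouse 5 (0.0702) or mouse 6 (0.0714), in adjusted p. Ndrg3 (2.27-fold, edgeR adjusted p = 0.00870), the RNA-binding protein gene Unk (5.38-fold, 0.00909) and St8sia1, which makes the ganglioside GD3 (4.72-fold, 0.0188), were lower as well. So were Adck2 (3.77-fold, edgeR adjusted p = 0.0422), Abtb2 (3.09-fold, 0.0242) and Gbp10 (2.75-fold, 0.0263), an interferon-inducible GTPase with near copies that may share its reads. Each of these 6 lost the call in at least 2 of the 4 fits with a mouse left out: Ndrg3 without mouse 5 (0.0533) or mouse 7 (0.0939), Unk without mouse 5 (0.0573) or mouse 7 (0.103), St8sia1 without mouse 6 (0.0735), mouse 7 (0.0939) or mouse 8 (0.112), Adck2 without mouse 5 (0.126), mouse 7 (0.180) or mouse 8 (0.0966), Abtb2 without mouse 5 (0.0789), mouse 6 (0.105) or mouse 7 (0.131) and Gbp10 without mouse 6 (0.214) or mouse 7 (0.180). The Unk fold was 9.30 without mouse 8, and the Abtb2 fold 1.88 with the mitochondrial covariate. Dnajb1, an HSP40 co-chaperone, fell 1.40-fold (244, 297, 288 and 303 against 402, 421, 362 and 398 CPM, edgeR adjusted p = 0.0172, lost without mouse 5 (0.143), mouse 6 (0.0786) or mouse 7 (0.0570)). Chosen after their values were seen, 4 more chaperone genes were among those called lower: the HSP90 partners Stip1 (1.32-fold, edgeR adjusted p = 0.0422) and Fkbp4 (1.5-fold, 0.0286), and the chaperonin subunits Tcp1 (1.40-fold, 0.0422) and Cct6a (1.53-fold, 0.0248). Their calls were lost in 3, 4, 3 and 3 of the 4 fits with a mouse left out. The highest adjusted p were 0.236 for Stip1 without mouse 8, 0.173 for Fkbp4 without mouse 5, 0.258 for Tcp1 without mouse 6 and 0.178 for Cct6a without mouse 5. The number of chaperone genes tested was not counted, and 0.397% of all tested genes were called lower. On the planned list of 16 immediate early and heat shock genes, Dnajb1 alone passed. The median log2 change of that list was 0.05, with 10 members above 0 and 6 below.

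A few calls rest on genes close to 0 in 1 gate. Gzma (chr13:113093825-113100981, - strand), a granule protease of cytotoxic cells, was at 0 in all 4 ST2- libraries and at 102, 6.17, 39.5 and 89.7 CPM in ST2+ libraries. Set against a floor of 3 counts over the 4 ST2- libraries it was at least 500.1-fold higher (edgeR adjusted p = 0.0486), and the call was lost whichever mouse was left out (adjusted p of 0.0802 to 0.215). The list of 10 CD8, NK and gamma-delta T cell markers, which includes Gzma, summed to 271, 169, 85.4 and 144 CPM in ST2+ and 77.0, 69.1, 98.6 and 99.8 CPM in ST2- libraries. Of its 8 tested members Gzma alone passed, 4 of 8 were higher, and a part of such cells in the Gzma signal was not tested. Ntn4, a secreted netrin, was at 15.2, 25.3, 18.5 and 12.6 CPM in ST2- libraries and at 0.247 CPM in the ST2+ library of mouse 5, and 0 in the other 3 (edgeR adjusted p = 0.00694, lost without mouse 7 (0.0583)). Drc1 (5.92, 1.81, 16 and 11.5 CPM in ST2- libraries), Rasl11b (11.1, 8.05, 3.36 and 5.43 CPM) and Zfp940 (14.5, 3.12, 2.19 and 4.66 CPM), named after their values were seen, were at 0 in all 4 ST2+ libraries. Against a floor of 3 counts over those 4 libraries they were at least 56.8-fold, 45.1-fold and 39.5-fold lower (edgeR adjusted p = 0.00296, 0.00661 and 0.0242), and the Zfp940 call was lost without mouse 6 (0.0802), mouse 7 (0.0714) or mouse 8 (0.0763). Ckmt1, a mitochondrial creatine kinase of epithelia, was at 11.1, 7.57, 338 and 3.21 CPM in ST2+ and 0.888, 0, 0 and 0 CPM in ST2- libraries. Its highest value belongs to mouse 7, the library with epithelial RNA, and the call (edgeR adjusted p = 0.0355) was lost whichever mouse was left out, with adjusted p = 0.393 without mouse 7.

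The gene lists show where these calls fall. Of 24 effector tissue Treg genes, 3 rose (Klrg1, Id2 and S100a6), 0 fell and 21 did not pass. Their median log2 change was 0.92, against -0.01 over all tested genes, and 22 of 24 were above 0. With an unadjusted p under 0.05, 13 of the 24 were higher and 0 lower, where 11% of all tested genes differed. Areg, the repair factor of tissue Treg, was at 51.0, 17.3, 57.6 and 8.28 CPM against 0, 15.8, 1.18 and 0 CPM, higher in ST2+ cells in 4 of 4 mice but with ranges that overlapped, since mouse 6 was high in the ST2- gate and mouse 8 low in the ST2+ gate (edgeR adjusted p = 0.40). Pparg, the nuclear receptor of fat Treg, was at 39.1, 0.796, 76.9 and 7.43 CPM against 0, 2.13, 0.504 and 1.24 CPM, high in mice 5 and 7 only (edgeR adjusted p = 0.470). Lgals1 had 581, 605, 478 and 463 CPM against 306, 314, 342 and 347 CPM, without overlap (edgeR adjusted p = 0.0540). Rora had 178, 188, 169 and 189 CPM against 135, 114, 69.8 and 115 CPM, again without overlap (edgeR adjusted p = 0.169), while Il10 ran from 4.56 CPM in mouse 8 to 119 CPM in mouse 5 among ST2+ libraries. Without mouse 5 or without mouse 7, 1 of the 24 genes rose, S100a6, and the median was 0.99 and 0.86.

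Of 16 naive and central T cell genes, 4 fell, among them Ccr7, Foxp1 and Ly6c1, Il7r rose and 11 did not pass. The median was -0.53 and 14 of 16 were below 0. With an unadjusted p under 0.05, 12 of the 16 were lower and 1 higher. Tcf7, a factor of memory and resting T cells, had 309, 346, 189 and 433 CPM against 389.6, 433, 402 and 493 CPM, lower in each of 4 mice, and did not pass (edgeR adjusted p = 0.239). Satb1, a chromatin organiser, had 220.4, 317, 124 and 321 CPM against 369, 403, 334 and 389.7 CPM, lower in 4 of 4 (edgeR adjusted p = 0.104). Bach2 had 60.9, 82.6, 8.85 and 57.3 CPM against 61.4, 87.7, 86.9 and 90.9 CPM, with the largest step in mouse 7 and almost none in mice 5 and 6 (edgeR adjusted p = 0.409). Without mouse 7, 0 of the 16 fell and the median was -0.38, and without mouse 5 or mouse 8, 2 fell and the median was -0.51 and -0.50.

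Treg core genes split: of 13, Ikzf2 and Tnfrsf18 rose, Gpr83, Lrrc32 and Izumo1r (the folate receptor 4 gene, 1.44-fold, edgeR adjusted p = 0.0242, lost without mouse 6 (0.119), mouse 7 (0.148) or mouse 8 (0.0536)) fell, and 8 did not pass, with a median of -0.02. Il2ra, the alpha chain of the IL-2 receptor, had 314, 256, 354 and 322 CPM against 507, 478, 410.0 and 402 CPM. Its ST2+ values were all below its ST2- values, but it did not pass (edgeR adjusted p = 0.0865). Without mouse 5, 1 core gene rose and 2 fell, without mouse 7, 1 rose and 1 fell, and without mouse 8, 1 rose and 2 fell.

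Downstream of the 2 receptors little passed. Of 23 IL-33 and IL-1 family receptor and signalling genes, the sort gene Il1rl1 was the only one that passed, and the median was 0.05. Il1rap, the partner of ST2, had 20.8, 24.5, 9.08 and 15.5 CPM in ST2+ and 13.5, 17.9, 27.1 and 6.36 CPM in ST2- cells, with overlap (edgeR adjusted p = 0.972). Il18rap, a chain of the IL-18 receptor, had 29.4, 39.4, 42.0 and 55.9 CPM against 13.5, 17.6, 6.89 and 7.76 CPM, higher in 4 of 4 mice and without overlap, yet with a wide SE (log2 1.92 ± 0.85 SE, edgeR adjusted p = 0.403). Irak2, a kinase family member of the pathway, had 11.9, 14.3, 61.5 and 48.5 CPM against 48.7, 67.0, 50.6 and 64.2 CPM, low in mice 5 and 6 of the ST2+ gate (edgeR adjusted p = 0.192). Of 18 TSLP receptor and Stat5 genes, Il7r rose, Bcl2 fell and 16 did not pass (median -0.23, and 0.07 with the mitochondrial covariate). Jak2, a kinase used by the TSLP receptor, had 181, 168, 235 and 189 CPM against 93.7, 134, 117 and 108 CPM, without overlap, and missed the limit (log2 0.77 ± 0.19 SE, edgeR adjusted p = 0.0545).

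**Figure D3:**
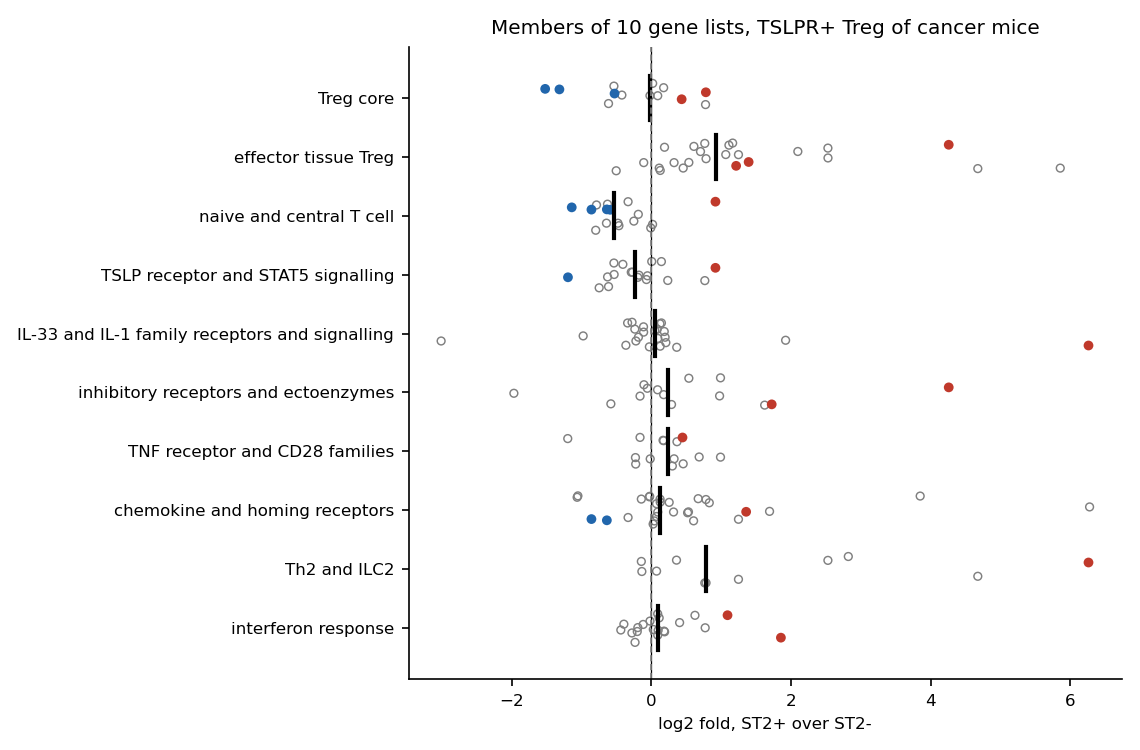
Fitted log2 fold of ST2+ over ST2- cells (x axis) for each tested member of 10 gene lists (rows), a gene being shown in each list that holds it. Filled red and blue points passed as higher and lower, open points did not pass, thick black bars are list medians and the dashed line is the median of all tested genes, and the bar of the effector tissue Treg list lies furthest right and that of the naive and central T cell list furthest left.

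In other receptor lists, Klrg1 and Cd200r1 rose among 14 inhibitory receptors and ectoenzymes, and Tnfrsf18 among 14 TNF receptor and CD28 family genes, with 0 lower in either. Pdcd1, which encodes PD-1, had 439.9, 336, 371 and 401 CPM against 193, 326, 147 and 138 CPM. Mouse 6 gave the smallest step, so the gates only just separated (edgeR adjusted p = 0.0540). Tnfrsf4, which encodes OX40, had 1441, 1406, 1633 and 1128 CPM against 929, 1158, 1052 and 939 CPM, higher in 4 of 4 mice, with mouse 8 of the ST2+ gate under mouse 6 of the ST2- gate (edgeR adjusted p = 0.0990). Tnfsf8, the ligand of CD30, had 35.9, 35.2, 32 and 69.6 CPM against 112, 164, 61.0 and 72.5 CPM and missed the limit (edgeR adjusted p = 0.0633). Nt5e, the ectoenzyme CD73, was lower in the ST2+ library of each mouse, at 326, 289.9, 401 and 418 CPM against 507, 629, 523 and 485 CPM, and did not pass (edgeR adjusted p = 0.142). Of 28 chemokine and homing receptors, Itgb1 rose and 2 fell, among them Ccr7. Ccr8, a receptor of tissue Treg, had 158, 157, 176 and 96.6 CPM against 50.9, 129.9, 65.6 and 17.7 CPM, with mouse 6 high in the ST2- gate (edgeR adjusted p = 0.329). Cd44, an activation marker, had 132, 174, 139.6 and 163 CPM against 87.0, 83.2, 84.9 and 88.5 CPM without overlap (edgeR adjusted p = 0.213).

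Among 15 tested product genes (of 23 listed), 0 passed, and the median was 0.87. Penk, the enkephalin precursor, had 463, 317, 537 and 581 CPM against 98.6, 187, 84.8 and 112 CPM, far apart in each mouse but with a log2 SE of 0.95 (log2 2.07, edgeR adjusted p = 0.434). That SE draws on all 32 libraries, and Penk ran from 7.24 to 271 CPM in the naive TSLPR+ST2- libraries. Fitted on the 8 libraries alone without the mouse block, Penk passed (log2 1.97, edgeR adjusted p = 0.0241), in a fit that called 22 genes. Fgl2, a secreted suppressor, had 131, 102, 143 and 133 CPM against 88.4, 57.6, 49.1 and 50.6 CPM without overlap (edgeR adjusted p = 0.311). Ebi3, a chain of IL-35, had 36.6, 65.1, 46.3 and 64.2 CPM against 28.1, 31.2, 23.0 and 29.5 CPM, also without overlap (edgeR adjusted p = 0.236). Of 11 tested Th2 and ILC2 genes Il1rl1 alone passed, and of 12 Th17 genes and 9 Th1 genes none did. Il23r was at 5.69 CPM in mouse 5 and at 0 in the other 3 ST2+ libraries, against 9.33, 5.25, 26.1 and 10.2 CPM (edgeR adjusted p = 0.361). Tbx21, the Th1 factor, had 40.3, 10.2, 0 and 0.676 CPM against 0.296, 0, 0 and 0 CPM, high in mouse 5 (edgeR adjusted p = 0.192). At an unadjusted p under 0.05, 3 of the 12 Th17 genes (1 higher and 2 lower) and 1 of the 9 Th1 genes differed. Of the 11 Th2 and ILC2 genes, 6 were higher at that limit, the sort gene Il1rl1 among them, and 0 lower. The median log2 change of that list was 0.78, with 9 members above 0. Among all tested genes 11% differed at that limit.

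Of 20 interferon response genes, Rsad2 and Oas1a rose and 18 did not pass (median 0.09). Rsad2, which encodes the antiviral protein viperin, had 72.0, 48.8, 104 and 80.6 CPM against 19.7, 40.2, 7.40 and 25.9 CPM (3.62-fold, log2 1.86 ± 0.37 SE, edgeR adjusted p = 0.0186). Mouse 6 gave the smallest step and mouse 7 the largest, and the call was lost without mouse 5 (0.0709), mouse 7 (0.158) or mouse 8 (0.0574), in adjusted p, with a fold of 2.37 without mouse 7. Oas1a, an RNA sensor with close copies that may share its reads, had 146, 85.2, 209 and 208 CPM against 77.6, 61.2, 70.3 and 80.4 CPM (2.13-fold, log2 1.09 ± 0.23 SE, edgeR adjusted p = 0.0249), lost without mouse 5 (0.0603), mouse 7 (0.210) or mouse 8 (0.107). Usp18, a brake on interferon signalling, was lower in ST2+ cells in 3 of 4 mice, at 150.4, 146, 165 and 286 CPM against 224, 266, 247 and 254 CPM (edgeR adjusted p = 0.470). Without mouse 5, 7 or 8, 0 of the 20 passed. Lists for T cell receptor activation (17 tested, Ikzf2 higher), immediate early and heat shock genes (16, Dnajb1 lower), AP-1 factors (12), proliferation (18), glycolysis (16) and lipid metabolism (21) held 1, 1, 0, 0, 0 and 0 called genes. Myc, a growth regulator on the activation list, had 149.7, 157, 119 and 161 CPM against 177, 302, 228 and 234 CPM and missed the limit (log2 -0.68 ± 0.17 SE, edgeR adjusted p = 0.0709). Mki67, a marker of dividing cells, had 44.0, 36.2, 58.6 and 44.4 CPM against 16, 17.7, 34.5 and 16.3 CPM, with the ST2- library of mouse 7 close to the ST2+ range (edgeR adjusted p = 0.595).

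Epithelial markers summed to 573, 257, 14534 and 200.1 CPM in ST2+ and 92.8, 154, 106 and 131 CPM in ST2- libraries, so that every ST2+ library lay above every ST2- library and mouse 7 far above the rest. Of 10 tested members 9 were above 0 on the log2 scale, none passed, and the median was 3.40. Without mouse 7 the median was 0.91 and none passed. Without the mouse block the median was 5.77 and 4 passed, in a fit that called 103 of 14861 genes. DESeq2 with the block called 4 of 12, and 3136 of 31358 genes in all. With thinned counts, by limma-voom and without mouse 6, 1 passed in each. Macrophage and dendritic cell markers summed to 3432, 6115, 7515 and 3238 CPM against 3039, 1151, 2194 and 4169 CPM (0 of 16 passed, 15 above 0, median 0.95). B and plasma cell markers summed to 747, 1351, 240.1 and 609 CPM against 364, 47.3, 229 and 633 CPM (0 of 10 passed, 8 above 0, median 1.03). Both sums overlapped between gates. The macrophage and dendritic cell median was 1.97 in naive mice, with 15 of 16 above 0, and 3.13 in the TSLPR- pair. For B and plasma cell markers these medians were 0.06 and 1.51. Mast cells also carry ST2. Their markers summed to at most 19.6 CPM, and 5 of the 9 were at 0 in all 8 libraries. Phgr1, an epithelial transcript, had 24.5, 15.9, 1326 and 7.77 CPM against 0, 5.42, 2.19 and 1.40 CPM (edgeR adjusted p = 0.0592), and Car1, an epithelial carbonic anhydrase, 303, 109, 9073 and 2.70 CPM against 43.1, 39.7, 23.7 and 23.3 CPM. Lgals3, on the effector list, was at 143, 109.5, 1088 and 66.1 CPM in ST2+ libraries, highest in the same mouse 7 library, against 46.5, 14.8, 65.4 and 38 CPM. Whether RNA of epithelial or myeloid cells adds to the differences of Treg genes was not tested. Without mouse 7, the 8 higher genes that kept the call with any 1 mouse left out had folds of 1.52 (S100a10) to 55.3 (Il1rl1). They were chosen for keeping that call, so this range is no test of the part of epithelial RNA.

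**Figure D4:**
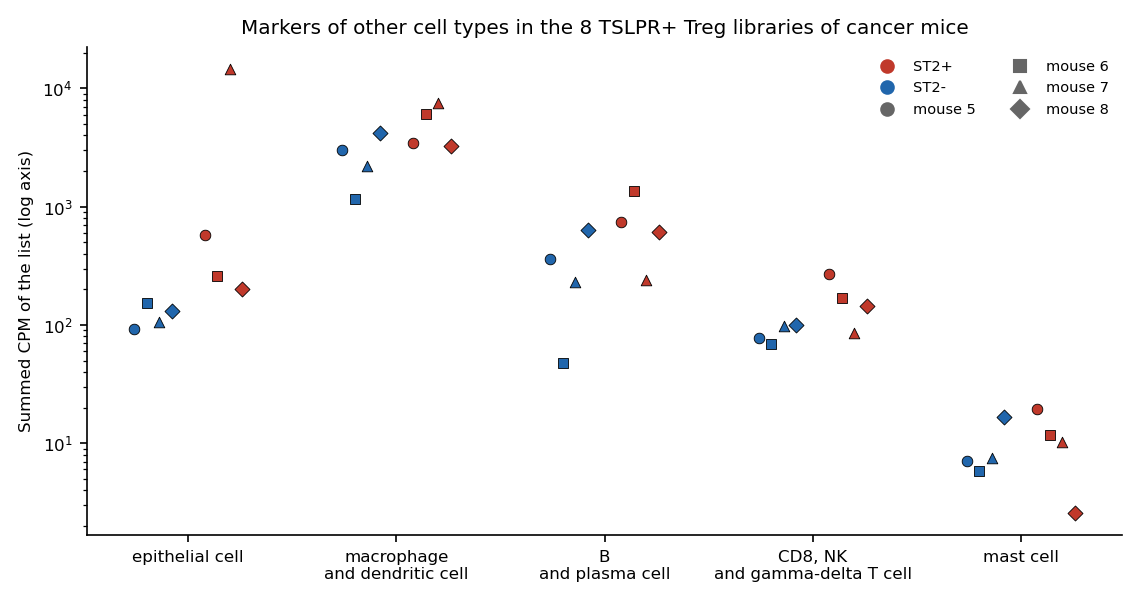
Summed CPM (log y axis) of 5 lists of markers of other cell types in the 8 TSLPR+ Treg libraries of cancer mice, with red for ST2+, blue for ST2- and a symbol for each mouse. The epithelial sum of the ST2+ library of mouse 7 stands far above the other 7 libraries, while macrophage, B cell and mast cell sums overlap between gates.

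The same ST2 contrast was set against that of naive mice. The naive pair shares no library with the cancer pair, and 57 genes (0.384%) passed there, 27 higher (0.182%) and 30 lower (0.202%). Of the 99 genes called in cancer mice, 92 (92.9%) had the same sign in naive mice, against 57.0% of all tested genes, and 20 also passed there with the same sign. Both sets included Il1rl1, Cd200r1, Klrg1, Id2, Itgb1, Il7r and Serinc3, all higher, and Rexo2, Cytip, Cd9, Foxp1, Bcl2 and Ly6c1, all lower. Klrg1 was 752 ± 70.5 against 39.3 ± 18.3 CPM in cancer and 498 ± 88.3 against 30.9 ± 17.5 CPM in naive mice (mean ± SD, n = 4 each), 19.2-fold and 17.2-fold. Cd200r1 was 3.30-fold higher in cancer and 2.86-fold higher in naive mice. Folds of S100a6 (2.63-fold in cancer, 1.38-fold in naive), Ikzf2 (1.72-fold and 1.06-fold), Lrrc32 (2.49-fold lower and 1.00-fold) and Snapc4 (5.10-fold lower and 1.14-fold higher) differed more, but the test of the difference did not pass for any of them (edgeR adjusted p = 0.630, 0.541, 0.487 and 0.196).

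The test of the difference between cancer and naive mice called 2 of 14861 genes (0.0135%), both with a lower ST2 contrast in cancer, while 1068 (7.19%) had an unadjusted p under 0.05. Dctn1 had 34.4, 22.7, 19.7 and 23.0 CPM in ST2+ and 71.9, 49.4, 50.6 and 69.4 CPM in ST2- cells of cancer mice, and 69.9, 91.3, 83.6 and 69.9 CPM against 43.3, 63.9, 64.4 and 44.9 CPM in naive mice 1 to 4. It was lower in ST2+ cells in each cancer mouse and higher in each naive mouse (difference of log2 changes -1.82 ± 0.28 SE, edgeR adjusted p = 0.0162). Dusp5 (chr19:53529109-53542431, + strand), a phosphatase that switches off ERK in the nucleus, had 54.4, 47.8, 56.3 and 40.0 CPM against 70.0, 72.4, 79.0 and 66.3 CPM in cancer and 138, 161, 169.9 and 184 CPM against 87.7, 105, 90.1 and 101 CPM in naive mice. Here too the direction was opposite in each mouse of the 2 groups (difference -1.30 ± 0.21 SE, edgeR adjusted p = 0.0162), although in cancer mice alone the ST2 contrast of Dusp5 did not pass (edgeR adjusted p = 0.0990). Both calls are fragile. Dctn1 was lost without mouse 1, 2, 3, 4, 5 or 7 (adjusted p of 0.0529 to 0.324) and Dusp5 without mouse 1, 2, 3, 4, 5, 6 or 8 (0.0529 to 0.324), and neither passed without the mouse block (0.0741 and 0.0777) or with the mitochondrial share as a covariate (0.522 and 0.614). No mice of the series had only the carcinogen or only DSS, and tumours, colitis and the chemicals themselves cannot be told apart.

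**Figure D5:**
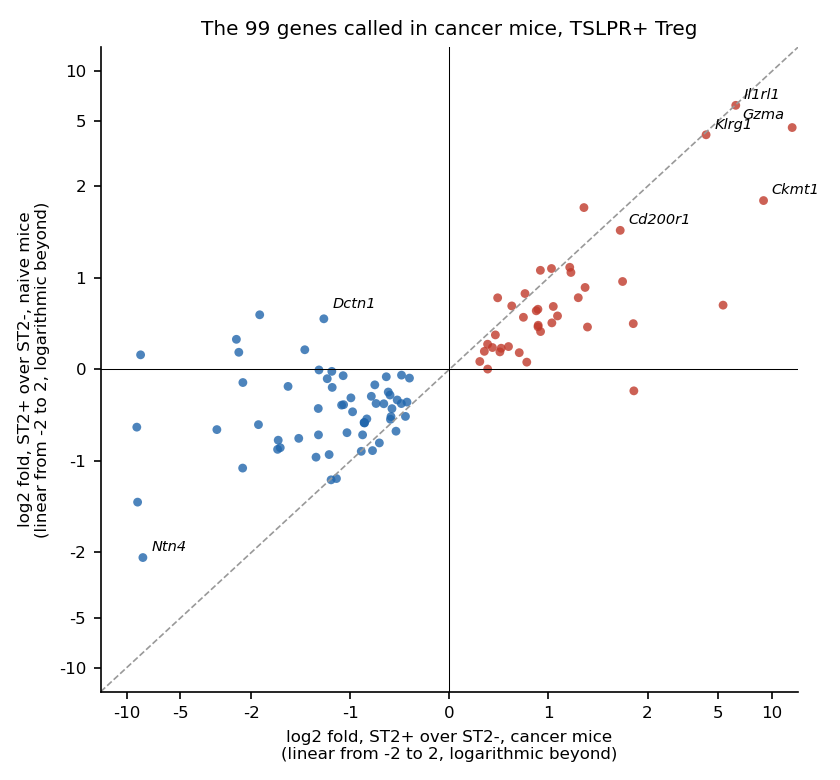
Fitted log2 fold of ST2+ over ST2- cells among TSLPR+ Treg in naive mice (y axis) against the same fold in cancer mice (x axis) for the 99 genes called in cancer mice, both axes linear between -2 and 2 and logarithmic beyond. Red and blue mark genes higher and lower in cancer, the dashed line marks equal folds, 92 of the 99 points share their sign and Dctn1 is 1 of the 7 that do not.

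Set against the TSLPR- gates of the same 4 mice, no gene passed the test of a different ST2 contrast (0 of 14861, with 1181 or 7.95% at an unadjusted p under 0.05, with 2270 called by DESeq2 with the mouse block and 152 without it). In the TSLPR- pair, 85 genes (0.572%) passed, 68 higher (0.458%) and 17 lower (0.114%). Of the 99 genes called among TSLPR+ cells, 87 (87.9%, against 56.2% of all tested genes) had the same sign there and 21 also passed with it. No library is shared between these pairs, but the mice are. Klrg1 was 60.6-fold and Cd200r1 3.91-fold higher in TSLPR- ST2+ cells, S100a6 3.71-fold and S100a11 2.89-fold, and all 4 passed. The Klrg1 fold rests on a TSLPR-ST2- gate near 0, at 0, 0, 0 and 17.4 CPM. Its TSLPR-ST2+ libraries had 172, 238, 184 and 227 CPM. Gpr83 was 1.83-fold and Lrrc32 2.64-fold lower there and also passed. Il2ra, which missed the limit among TSLPR+ cells, passed among TSLPR- cells at 1.94-fold lower (edgeR adjusted p = 0.00111). Cd81, at 2.07-fold higher among TSLPR+ cells, was 1.11-fold lower among TSLPR- cells and did not pass there, and the test of that difference gave an edgeR adjusted p of 0.0979 (0.0331 without mouse 5).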

How the data were processed

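RNA of 33 libraries was measured by full-length SMART-Seq v4 cDNA and 58-base single reads, per the labels' protocols. The authors deposited 1 table of raw read counts for 53465 genes, 53274 with a symbol, and each of its 33 columns matched 1 library. The submitters' processing notes name HTSeq 0.4.1, Picard 1.134, FastQC 0.11.3, SAMtools 1.2 and the build GRCm38. The aligner, annotation release and strand setting (not given in the sources used here) are unknown. Without a known strand setting, reads of overlapping antisense genes may be mixed. Gene positions come from GENCODE M21 (53360 genes matched).

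The 32 Treg libraries (4038718 to 8839946 counts each) entered 1 edgeR 4.0.16 quasi-likelihood fit in R 4.3.3, with TMM scaling, filterByExpr (minimum count 10, total 15), a term for each of 8 mice and gate terms within status (18 residual degrees of freedom). P-values were adjusted by Benjamini-Hochberg over 14861 genes with a limit of 0.05. The SE of a log2 change is its size divided by the root of F, which draws on the spread over all 32 libraries. The mice pair the libraries by label, since the 4 gates of a mouse share its number. The deviations of the ST2+ and ST2- libraries of a mouse from their group means correlated at -0.0138, -0.0240, -0.0176 and -0.0116 for mice 5 to 8. With the ST2- libraries of other mice, the highest values were 0.0121, 0.0146, 0.0205 and 0.0319, each above the value of the same mouse. The pairing thus rests on the labels. Mice are the replicates, and a single library per mouse and gate leaves technical and biological spread joined. Alternatives were no block, RLE scaling, DESeq2 1.42.0, limma-voom (limma 3.58.1), other filters, thinned totals, each mouse left out and the 8 libraries alone. A mitochondrial covariate and DESeq2 without the block were added after seeing the data.

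Named genes are Il1rl1, Crlf2 and Foxp3, then the 12 higher and 12 lower genes of smallest p (4 of 4 mice alike, mean of at least 10 CPM in the higher gate). The 6 higher and 6 lower of largest fold at 30 CPM or more, up to 4 of smallest p per list and up to 5 each way per difference follow. Clone names, pseudogenes and mitochondrial, ribosomal and receptor segment genes were counted only. Tcf7, Satb1, Il10, Il1rap, Lgals3 and Izumo1r were named outside that rule, after their values were seen. The comparison and the gene lists were chosen with earlier results of these data known. Left out was 1 library of naive T cells, and some list members are not reported here.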

Additional observations from a re-analysis of the deposited data

Results flagged for a closer look

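Of 192 groups of 4 libraries examined for the named genes, 15 held a library set apart from the other 3 by Dixon's gap ratio. Chance marks about 1 in 20 groups of normally spread values, a rate that does not hold for values near 0. Where the other 3 libraries are at 0 the ratio is 1 by construction. That holds for Ntn4 and Il23r in the ST2+ gate and for Ckmt1 and Tbx21 in the ST2- gate. In the ST2+ gate the libraries set apart were mouse 5 for Ntn4 (0.247 CPM against 0 in the other 3) and Il23r (5.69 CPM against 0), mouse 7 for Ckmt1 (338 CPM against 3.21 to 11.1) and Hk2 (111 CPM against 0.338 to 4.98), and mouse 8 for Tnfsf8 (69.6 CPM against 32 to 35.9) and Usp18 (286 CPM against 146 to 165). Ckmt1 and Hk2 stand out in the library with the high epithelial marker sum, and the part of those cells was not tested.

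In the ST2- gate, mouse 6 stood apart for the sort gene Il1rl1 (11 CPM against 0 to 1.33 in the other 3) and for Areg (15.8 CPM against 0 to 1.18). Mouse 5 did for Cd81 (166 CPM against 131 to 135), Ckmt1 (0.888 CPM against 0), Bach2 (61.4 CPM against 86.9 to 90.9), Tbx21 (0.296 CPM against 0) and Il12rb2 (4.88 CPM against 0.504 to 0.657). Mouse 7 did for Mki67 (34.5 CPM against 16 to 17.7) and mouse 8 for Hk2 (11 CPM against 1.31 to 2.69).

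The ST2 contrast differed between cancer and naive mice by -1.82 for Dctn1 and -1.30 for Dusp5 on the log2 scale, both at an edgeR adjusted p of 0.0162.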

How the results depend on the processing

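The 99 genes kept their direction in each alternative fit of the main comparison, except that the stricter filter tested only 97 of them. All these fits reuse libraries by which the 99 were chosen. Some list medians near 0 changed sign with the setting, among them those of the Treg core and the IL-33 and IL-1 family lists, and that of the TSLP receptor and Stat5 list was 0.07 with the mitochondrial covariate. DESeq2 called 3136 genes with the mouse block and 377 without it, and both sets held all 99. The 8 libraries alone gave 1 gene with the mouse block and 22 without it, and with 1 mouse left out 29 to 99 genes passed. Without the block in the fit of 32 libraries 103 genes passed, 79 of them among the 99. With RLE scaling 100 passed (90 of them among the 99), without a filter 74 (73), with the stricter filter 118 (97), after thinning 106 (93), by limma-voom 96 (69) and with the mitochondrial covariate 102 (54). The difference between cancer and naive mice, 2 genes, became 0 without the block, 0 with the mitochondrial covariate, 2445 by DESeq2 with the block, 47 without it, and 0 to 7 with 1 mouse left out, the 7 without mouse 8. The difference between TSLPR+ and TSLPR- cells, 0 genes, became 1 without the block (Drc1), 2270 by DESeq2 with the block, 152 without it, and 0 to 1 with 1 mouse left out (Cd81 without mouse 5, mt-Rnr1 without mouse 8). The cause of these changes was not tested. Of 42 named genes that passed, 8 lost the call without the block, 14 with the mitochondrial covariate and 21, 11, 24 and 10 without mouse 5, 6, 7 or 8. Gzma and Ckmt1 had few or no counts in ST2- libraries and varied widely among ST2+ libraries. The parts of sequencing depth and of 200 cells a library in such calls were not tested.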
